A study of Mus musculus with 50 samples.

Results

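PRC1.6 is a variant Polycomb repressor complex, and 8 of the 35750 genes in the deposited table encode the subunits followed here. They were taken by gene symbol: L3mbtl2, Pcgf6, Mga, Max, E2f6, Rybp, Ring1 and Rnf2. Their RNA was measured in wild-type C57BL6/J mouse embryos, in 50 bulk RNA-seq libraries of 5 pooled embryos each. Embryos came from females aged 3 to 12 weeks. One arm was left uninjected. The mCherry arm received 200 ng/µl of mRNA for a nuclear mCherry protein (NLS-mCherry). The Duxbl arm received 200 ng/µl of mRNA for the homeobox factor Duxbl with a V5 tag, joined through a 2A peptide to the same nuclear mCherry (Duxbl-V5-2A-NLS-mCherry). Injection was at the 1-cell stage, 24 h after the ovulation-inducing hormone hCG. Sampling times after hCG were 28 to 30 h for late 1-cell embryos (late 1C), 32 h for early 2-cell embryos (early 2C) and 48 h for late 2-cell embryos (late 2C). The uninjected and mCherry arms had 6 libraries at each stage, and the Duxbl arm had 4, 5 and 5. Nothing in the labels says which libraries came from separate matings, so p-values measure the spread between these tubes.

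Polycomb repressive complex 1 adds a single ubiquitin to histone H2A through the ring-finger enzymes Rnf2 (RING1B) and Ring1 (RING1A). Each version of the complex is built around a different PCGF protein, and PCGF6 marks the version in which MGA with MAX, and E2F6 with a DP partner, bind DNA directly. L3MBTL2 is a structural and chromatin-binding subunit, and RYBP stimulates the ubiquitin ligase. In mouse embryonic stem cells this complex is best known for silencing genes of the germline and of meiosis.

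Levels are given in CPM, here each deposited value divided by its library's scaled total in M, so CPM are not reads. The sums of deposited values per library were between 22.5 and 27.0 M for late 1C, between 22.3 and 26.4 M for early 2C and between 12.04 and 22.5 M for late 2C embryos, and the read depth behind them is unknown. The gene Duxbl1 averaged 3960 ± 613 CPM (SD, n = 4) in the Duxbl arm at late 1C and 2856 ± 1119 (n = 5) at late 2C, against 141 ± 18.2 and 329 ± 138 in mCherry embryos (n = 6 each), with no overlap. In late 2C libraries the summed level of 10 markers of the 2-cell stage was 1074 to 2440 CPM in uninjected, 1235 to 3448 in mCherry and 52.7 to 351 in Duxbl embryos. The 10 oocyte markers summed to 1426 to 2596, 1736 to 2421 and 4036 to 4866 CPM in the same groups. The 4 blood markers in the table summed to 16.6 to 57.4, 25.3 to 41.7 and 0 to 13.1 CPM there, and the 8 oviduct markers to 133 to 249, 141 to 207 and 127 to 255. The oviduct markers were uneven. Their highest group means were 105 CPM for Epcam, 52.1 for Ovgp1, 43.4 for Cdh1 and 42.2 for Krt18. Wt1 reached 14.8, Krt8 6.59, Pax8 0.757 and Foxj1 0.131 CPM. Markers of cumulus cells (9 in the table) and of sperm (8) summed to at most 24.5 and 32.1 CPM in any library, and no marker of either was at 0 in all 50. The part of these markers in the results below was not tested. In libraries of whole pooled embryos, fewer cells and less RNA per cell cannot be told apart.

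Promoters of the 4 members that differed between Duxbl and mCherry embryos at late 2C are shown, because the remaining results turn on these genes. The windows run from 250 bases before the annotated start to 50 bases from it on, 5′ to 3′ on the gene's strand, from RefSeq on GRCm38.p6. Capitals mark the annotated start base and, in Max, an E-box, the CACGTG element that MAX dimers bind. The windows are chr15:81663639-81663938 on the plus strand for L3mbtl2, chr2:119896978-119897277 on the plus strand for Mga, chr12:76962199-76962498 on the minus strand for Max and chr19:47050857-47051156 on the minus strand for Pcgf6.
L3mbtl2: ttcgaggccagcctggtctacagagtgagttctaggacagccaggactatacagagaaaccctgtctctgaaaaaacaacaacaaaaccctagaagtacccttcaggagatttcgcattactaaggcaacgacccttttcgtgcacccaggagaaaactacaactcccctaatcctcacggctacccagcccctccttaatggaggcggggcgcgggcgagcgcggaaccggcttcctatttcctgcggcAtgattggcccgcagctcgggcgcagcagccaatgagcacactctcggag
Mga: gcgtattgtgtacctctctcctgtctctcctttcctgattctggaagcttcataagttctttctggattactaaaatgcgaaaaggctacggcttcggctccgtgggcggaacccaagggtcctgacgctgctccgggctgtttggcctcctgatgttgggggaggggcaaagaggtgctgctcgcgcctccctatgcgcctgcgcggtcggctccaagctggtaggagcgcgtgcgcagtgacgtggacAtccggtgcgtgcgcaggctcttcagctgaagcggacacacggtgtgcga
Max: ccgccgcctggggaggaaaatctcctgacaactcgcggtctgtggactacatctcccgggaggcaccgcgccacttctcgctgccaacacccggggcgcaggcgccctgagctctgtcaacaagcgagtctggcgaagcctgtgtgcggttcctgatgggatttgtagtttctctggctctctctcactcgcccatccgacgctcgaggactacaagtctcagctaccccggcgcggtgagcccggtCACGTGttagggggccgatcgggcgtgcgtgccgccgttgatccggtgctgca
Pcgf6: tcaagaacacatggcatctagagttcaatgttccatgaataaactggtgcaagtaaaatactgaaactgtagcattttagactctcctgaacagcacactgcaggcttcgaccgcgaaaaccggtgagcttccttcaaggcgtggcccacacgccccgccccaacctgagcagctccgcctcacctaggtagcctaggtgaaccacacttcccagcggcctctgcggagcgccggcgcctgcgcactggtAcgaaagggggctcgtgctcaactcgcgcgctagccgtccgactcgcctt

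A promoter window was found for 7 of the 8 members, and none for Rybp. The E-box in Max begins 3 bases before the annotated start and contains it. It was the only E-box in the 7 windows, while 7.15% of 32851 mouse promoter windows of the same length held one. The E2F element GCGGGAA (4.6% of all windows) and the ETS element CCGGAAG (8.86%), which do not overlap the E-box letters, were searched on both strands and were in none of the 7. G and C made up 55.7% of the L3mbtl2 window, 57.7% of Pcgf6, 60.0% of Mga and 64.7% of Max, and 68.0 to 74.0% of E2f6, Ring1 and Rnf2, against a median of 52.7% over all windows. Both members with a lower level after Duxbl, L3mbtl2 and Mga, and both with a higher level, Max and Pcgf6, thus lacked the E2F and ETS letters in these windows.

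In the genome build of the files (mm39), L3mbtl2 lies at chr15:81548090-81572516 (plus strand), Pcgf6 at chr19:47022056-47039345 (minus), Mga at chr2:119727709-119800062 (plus) and Max at chr12:76984043-77008975 (minus). E2f6 lies at chr12:16860964-16889743 (plus), Rybp at chr6:100205526-100264446 (minus), Ring1 at chr17:34239766-34243654 (minus) and Rnf2 at chr1:151333755-151376706 (minus). The libraries do not mark strand, so reads of overlapping genes cannot be told apart. Within L3mbtl2 lies the processed pseudogene Gm18284, and the 3′ part overlaps Chadl. Rybp overlaps the pseudogene Gm18422 and the unclassified transcripts Gm44045 and Gm44044, Max overlaps Gm47218, and Rnf2 overlaps Trmt1l and Gm36527. Rybp-ps, a pseudogene copy elsewhere, can share reads with Rybp.

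The 8 members spanned a wide range of RNA level. Per kilobase of joined exons, the mean level in uninjected late 1C embryos was highest for Pcgf6 at 111 CPM per kb, followed by Rnf2 at 88.0, Max at 58.9 and Rybp at 19.95. Mga was at 3.99, L3mbtl2 at 2.34, E2f6 at 0.952 and Ring1 at 0.0354 CPM per kb. The ranges of Rnf2 over the 6 libraries overlapped those of both Pcgf6 and Max, and the ranges of L3mbtl2 those of both Mga and E2f6. At late 2C in uninjected embryos the order was Pcgf6 (67.9 CPM per kb), Rnf2 (63.1), Mga (24.1), Rybp (16.1), L3mbtl2 (15.4), Max (15.2), E2f6 (3.14) and Ring1 (0.158). The ranges of Pcgf6 and Rnf2 overlapped there, as did those of Rybp, L3mbtl2, Max and Mga. In Duxbl embryos at late 2C Pcgf6 stood at 146 CPM per kb, Rnf2 at 83.2 and Max at 82.5, while Mga stood at 8.23 and L3mbtl2 at 0.445, next to Ring1 at 0.646. Rnf2 overlapped both Pcgf6 and Max in that group, Rybp overlapped Mga, and E2f6, Ring1 and L3mbtl2 overlapped each other. The RNA of the 8 members was therefore uneven at every stage, with Pcgf6 and Rnf2 the highest per kb in each of the 9 groups and Ring1 the lowest in 8 of them. Some members, such as Rnf2, Ring1 and Max, also act outside PRC1.6, so these levels do not give the make-up of the complex.

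**Figure D1:**
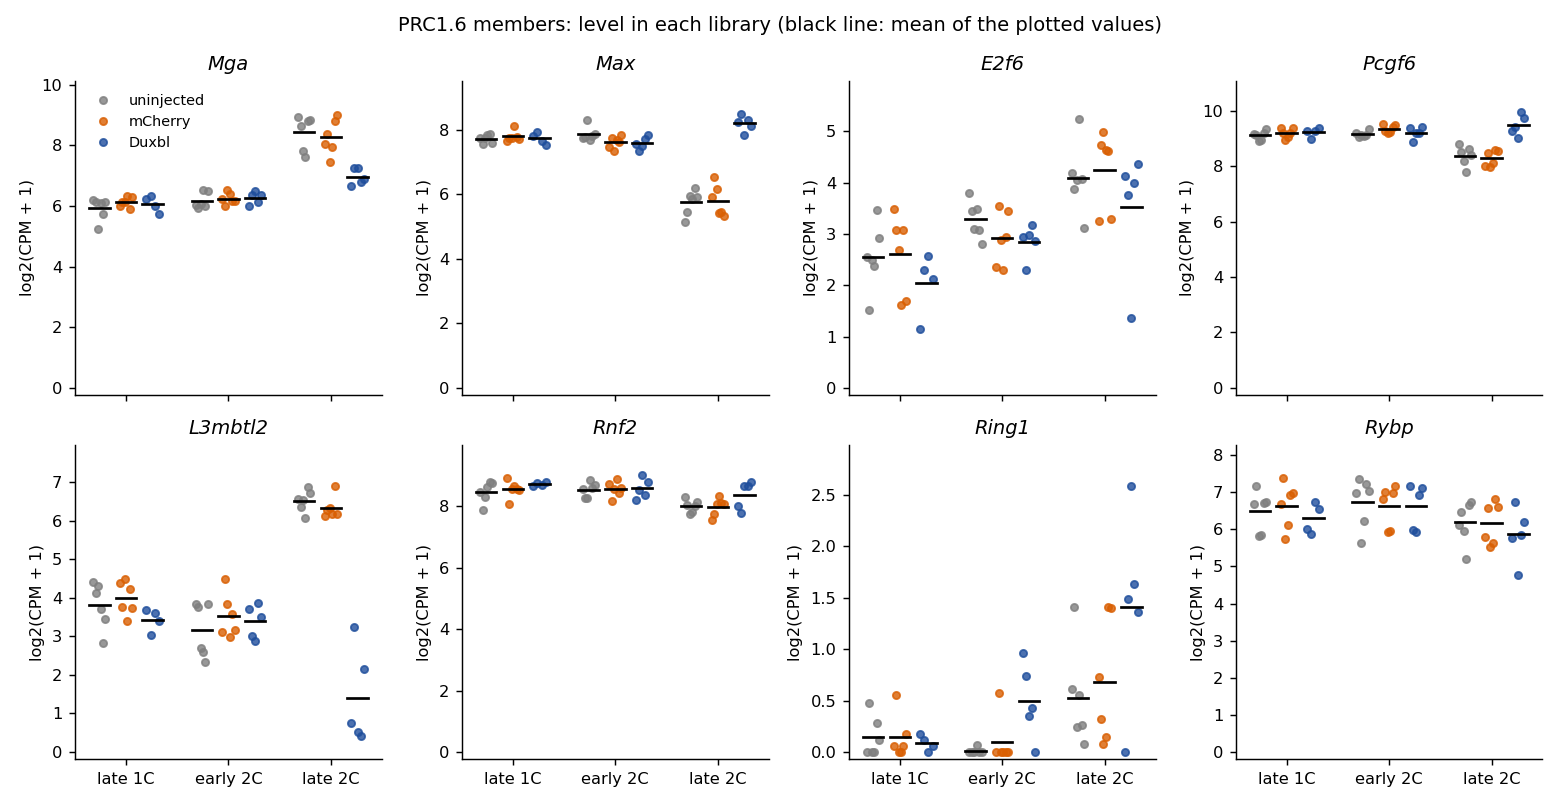
Level of each member in every library as log2(CPM + 1), by arm and stage, with 1 point per library and a black line at the mean of the plotted values. At late 2C the Duxbl libraries of L3mbtl2 (0.328 to 8.38 CPM) and Mga (99.8 to 152) sit below all control libraries, and those of Max (229 to 357) and Pcgf6 (515 to 997) sit above them.

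After Duxbl mRNA the balance of RNA for the subunits differed at late 2C: L3mbtl2 and Mga RNA were lower than in mCherry embryos, Max and Pcgf6 RNA were higher, and 4 members did not pass the test. Across all 23052 genes tested with limma at this stage, 55.9% were called at an adjusted p under 0.05 (26.8% higher, 29.1% lower), so the 4 of 8 members called (2 higher, 2 lower) are close to the background share. The median log2 difference was 0.05 over the members and -0.05 over all genes tested. The 4 called members, and no other of the 8 tested, were without overlap between the groups, as were 34.5% of all genes tested.

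L3mbtl2, the subunit with MBT domains, had the largest difference. In mCherry embryos at late 2C its lowest, median and highest levels were 68.4, 73.9 and 119 CPM, and in uninjected embryos 66.1, 92.8 and 115. The 5 Duxbl libraries had 0.670, 8.38, 0.441, 0.328 and 3.41 CPM, each below every control library. The means were 2.65 ± 3.45 (SD, n = 5) and 80.9 ± 19.2 CPM (n = 6), a log2 difference of -4.92 (SE 0.40, adjusted p = 1.58e-09, limma), or 30.3-fold on the log2(CPM + 1) scale. The size depends on the added constant at these low levels: it was -5.83 with 0.1 CPM added and -5.98 with voom weights. At the earlier stages L3mbtl2 averaged 8.94 to 15.5 CPM in every arm, so the Duxbl level at late 2C was the lowest of the 9 groups. Gm18284, the pseudogene inside L3mbtl2, was the opposite, at 39.7 ± 18.1 CPM after Duxbl and 8.45 ± 5.05 after mCherry at late 2C.

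Pcgf6, the ring-finger protein that defines the complex, had 621, 677, 515, 997 and 865 CPM in the 5 Duxbl libraries at late 2C. The lowest, median and highest were 251, 317 and 380.3 CPM in mCherry and 219, 351 and 445 in uninjected embryos, all below the Duxbl values. The means were 735 ± 194 and 316 ± 62.7 CPM, a log2 difference of 1.198 (SE 0.21, adjusted p = 5.94e-05, limma). The Duxbl level at late 2C was near the 472 to 732 CPM of all Pcgf6 libraries at early 2C, apart from its 2 highest libraries.

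Mga, the scaffold that carries both a T-box and a helix-loop-helix DNA-binding domain, had 99.8, 152, 152, 109 and 119 CPM in the Duxbl libraries at late 2C. Its lowest, median and highest were 175, 296 and 517 CPM in mCherry and 195, 427 and 494 in uninjected embryos. All 5 Duxbl libraries were below both control groups, whose own libraries spread widely. The means were 126 ± 24.1 and 329 ± 129.8 CPM, a log2 difference of -1.30 (SE 0.29, adjusted p = 0.000533, limma).

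Max, the dimer partner that MGA shares with MYC and MXD proteins, moved the opposite way from Mga. The Duxbl libraries had 305, 357, 229, 315 and 278 CPM at late 2C. The lowest, median and highest were 39.1, 50.9 and 93.0 CPM in mCherry and 34.4, 58.4 and 72.4 in uninjected embryos, so the Duxbl libraries stood apart by a wide gap. The means were 297 ± 47.5 and 57.7 ± 21.1 CPM, a log2 difference of 2.40 (SE 0.26, adjusted p = 8.24e-08, limma). Per kb of exon, Max averaged 82.5 and Mga 8.23 CPM after Duxbl, against 16.0 and 21.4 CPM in mCherry embryos.

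E2f6, an E2F family member without an activation domain, had 16.5, 12.5, 1.57, 14.8 and 19.7 CPM in the Duxbl libraries and 8.57, 23.6 and 30.6 (lowest, median, highest) in mCherry embryos. The groups overlapped, and library 4 of the Duxbl group was far below the rest. The log2 difference of -0.73 (95% interval -1.76 to 0.30, adjusted p = 0.217, limma) did not pass. Without the libraries numbered 4 and 5 it was 0.09 (adjusted p = 0.869).

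Rnf2, the main catalytic subunit in embryonic cells, had 254, 221, 402, 399.8 and 441 CPM in the Duxbl libraries and 186, 267.5 and 324 in mCherry embryos. Its groups overlapped, with 3 Duxbl libraries above every mCherry library. The log2 difference was 0.40 (95% interval -0.04 to 0.84, adjusted p = 0.113, limma). In a fit of all 9 groups the adjusted p was 0.0458, and without Duxbl library 3 it was 0.0373, at a log2 difference of 0.54. Ring1, the other catalytic subunit, was near the floor of the table, with 0, 1.81, 5.00, 2.11 and 1.57 CPM in the Duxbl libraries and 0.0525 to 1.67 CPM in mCherry embryos. Its log2 difference was 0.73 (95% interval -0.12 to 1.58, adjusted p = 0.133, limma). The adjusted p was 0.0137 in the fit of all 9 groups and 0.0245 without Duxbl library 1, where Ring1 was listed at 0. The fit of all 9 groups called 8691 genes higher and 8390 lower of 28808 for this comparison. It also called 27 higher and 13 lower between mCherry and uninjected embryos at late 2C, where the main fit called 0.

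Rybp had 53.2, 106, 26.2, 56.7 and 72.8 CPM in the Duxbl libraries and 45.2, 74.3 and 113 in mCherry embryos at late 2C. The groups overlapped throughout, at a log2 difference of -0.30 (95% interval -1.02 to 0.43, adjusted p = 0.486, limma). The spread of Rybp followed the library number given in the labels: in 9 of 9 groups the libraries numbered 4 and 5 (only number 4 in Duxbl late 2C) were below every other library, which 47 of 28808 genes did. In uninjected embryos Rybp averaged 61.3 CPM in the libraries numbered 4 and 5 at early 2C and 141 in the other 4. The values at late 2C were 48.7 and 90.2 CPM. The labels do not say what a number marks. Rybp-ps did the same in 8 of 9 groups, at 7.37 and 51.9 CPM at early 2C, and Pcgf6 in 6 of 9.

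**Figure D2:**
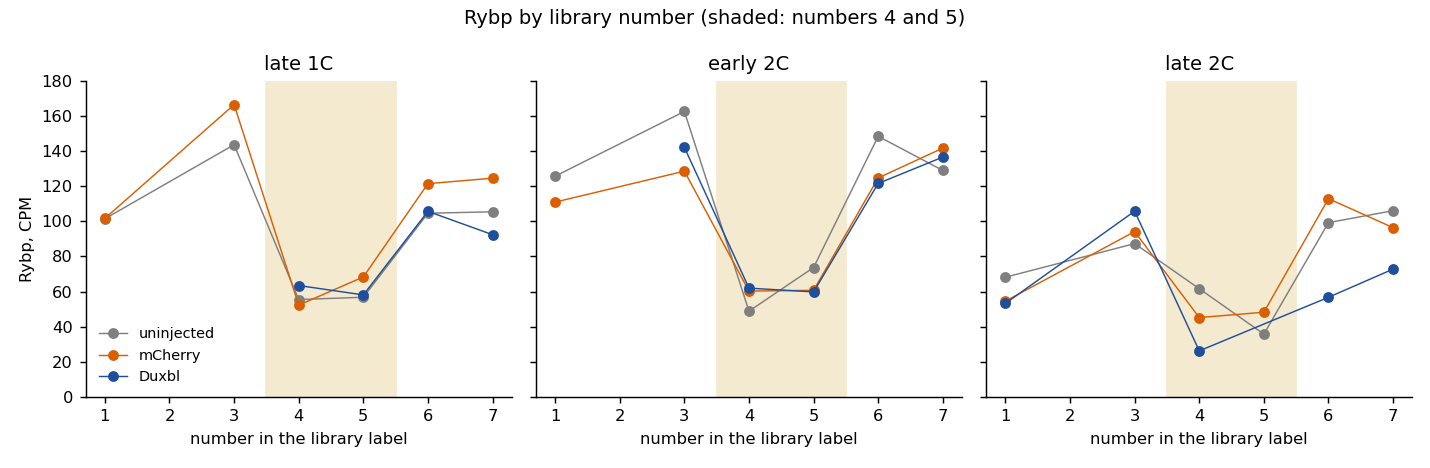
Rybp level in CPM by library number in each of the 9 groups, with 1 point per library, lines joining the points of an arm and shading over the numbers 4 and 5. The libraries numbered 4 and 5 lie lowest in every group, at 56.1 CPM against 114 for the others in uninjected late 1C embryos, for example.

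Before late 2C no member passed the test between Duxbl and mCherry embryos, which does not show that the levels were equal. At late 1C and at early 2C, 0 of the 7 members tested were called by limma, and 0 had an unadjusted p under 0.05 (Ring1 was under the filter on low values). The background was 0.0193% of 20777 genes at late 1C and 0.42% of 21180 at early 2C, and 5.75% and 4.77% had an unadjusted p under 0.05. With voom weights 0 members were called. At late 1C L3mbtl2 was 9.93 ± 2.13 CPM (n = 4) against 15.5 ± 4.85 (n = 6), a log2 difference of -0.57 (95% interval -1.16 to 0.03). E2f6 was at 3.37 ± 1.59 against 5.79 ± 3.21 CPM there (-0.56, adjusted p = 0.880, limma). At early 2C the member with the largest difference was also L3mbtl2, at -0.14 (95% interval -0.82 to 0.54). Max was at 194 ± 26.2 and 197 ± 24.5 CPM there, and Pcgf6 at 599.9 ± 83.9 and 656 ± 62.3.

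The injection itself moved no member past the threshold. Between mCherry and uninjected embryos 0 members were called at any stage, of 7, 7 and 8 tested with limma, and 0 had an unadjusted p under 0.05. No gene of the whole table was called (0%), with 2.71%, 3.69% and 1.66% of genes at an unadjusted p under 0.05 at the 3 stages. With voom weights the count of members was also 0. At late 2C the log2 differences of the 4 members described above were -0.19 for L3mbtl2 (95% interval -0.98 to 0.60), -0.18 for Mga (-0.74 to 0.39), 0.05 for Max (-0.46 to 0.56) and -0.10 for Pcgf6 (-0.52 to 0.32).

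In uninjected embryos the balance shifted between early and late 2C, the interval that holds the main wave of embryonic genome activation in the mouse. L3mbtl2 rose from 8.94 ± 4.55 to 91.8 ± 17.2 CPM (log2 difference 3.34, SE 0.34, adjusted p = 2.57e-12, limma) and Mga from 72.5 ± 13.9 to 370.1 ± 128 (2.27, SE 0.21). Max fell from 236 ± 40.4 to 54.6 ± 13.6 CPM (-2.12, SE 0.16), Pcgf6 from 572 ± 43.1 to 341 ± 79.1 (-0.77, SE 0.14) and Rnf2 from 377 ± 62.9 to 260.5 ± 37.4 (-0.53, SE 0.17, adjusted p = 0.00564). Early and late 2C libraries did not overlap for L3mbtl2, Mga, Max, Pcgf6 and Ring1, as for 33.9% of all genes tested. They did overlap for Rnf2, E2f6 and Rybp. Thus 5 of 8 members were called, 2 higher and 3 lower, against 56.9% of 28808 genes (30.3% higher, 26.6% lower), and their median was -0.01 against 0.02 for all genes tested. E2f6 (0.81, adjusted p = 0.0752), Ring1 (0.51, adjusted p = 0.0731) and Rybp (-0.55, adjusted p = 0.145) did not pass. Ring1 went from at most 0.0445 CPM at early 2C to 0.0523 to 1.65 CPM, without overlap. Without uninjected late 2C library 7, E2f6 (1.00, adjusted p = 0.0320) and Ring1 (0.61, adjusted p = 0.0442) passed, and without early 2C library 4 Rybp did (-0.77, adjusted p = 0.0402).

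The mCherry arm gave 7 of 8 called (background 57.2%). L3mbtl2 (log2 difference 2.80), Mga (2.02), E2f6 (1.34) and Ring1 (0.58, adjusted p = 0.0405) rose, and Max (-1.82), Pcgf6 (-1.07) and Rnf2 (-0.58) fell. The falls of Rnf2 rested on the scaling: with library totals in place of trimmed-mean factors they were -0.12 in uninjected (adjusted p = 0.525) and -0.13 in mCherry embryos (adjusted p = 0.510, limma). The Ring1 call in the mCherry arm was lost without any of 8 single libraries: those numbered 1, 4, 5, 6 and 7 at early 2C and 1, 6 and 7 at late 2C (adjusted p 0.0583 to 0.140). It was also lost with no filter on low values (adjusted p = 0.0502). Ring1 was at 0 in 5 of 6 mCherry libraries at early 2C and averaged 0.729 CPM at late 2C. The filter on low values counted libraries of all 9 groups, those with more Ring1 included, so its call adds little to the 7 of 8. Without the libraries numbered 4 and 5, Rybp fell in all 3 arms, by a log2 difference of -0.66 in uninjected (adjusted p = 0.00877), -0.54 in mCherry (0.0314) and -0.93 in Duxbl embryos (0.00147). These numbers were chosen after seeing the data, and Rybp itself was lowest in them. Its adjusted p-values from limma without them are therefore descriptive and no valid test of a fall. Without the libraries numbered 4 and 5 the fall of Rnf2 in uninjected embryos was not called (-0.40, adjusted p = 0.113), and neither was the rise of E2f6 in the mCherry arm (0.90, adjusted p = 0.0630).

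In the Duxbl arm 4 of 8 members changed over the same interval (background 39.2%). L3mbtl2 fell from 9.83 ± 3.08 to 2.65 ± 3.45 CPM (-1.98, SE 0.37, adjusted p = 2.02e-05, limma), with overlap of the libraries, in place of the rise seen in both control arms. The fall was -2.77 with 0.1 CPM added and -2.91 with voom weights. Mga rose from 76.5 ± 10.5 to 126 ± 24.1 CPM (0.71, SE 0.23, adjusted p = 0.0108), and Max from 194 ± 26.2 to 297 ± 47.5 (0.61, SE 0.18, adjusted p = 0.00524). Ring1 rose by 0.92 (adjusted p = 0.00545), a call lost without Duxbl late 2C library 4 (0.63, adjusted p = 0.0518), with 0.1 CPM added (adjusted p = 0.0923), with voom weights (0.220), in a fit of only the groups compared (0.107) and without the libraries numbered 4 and 5 (0.122). Ring1 was near the floor here too, at means of 0.446 and 2.10 CPM, so its call adds little to the 4 of 8. Pcgf6 did not pass at 0.26 (adjusted p = 0.179), nor did Rnf2 at -0.21, Rybp at -0.76 (adjusted p = 0.0860) or E2f6 at 0.67 (adjusted p = 0.228). E2f6 passed without Duxbl late 2C library 4 (1.21, adjusted p = 0.0125), and Rybp passed without late 2C library 3 (-0.98, adjusted p = 0.0303) or without library 4 or 5 of early 2C (-0.92 and -0.93, adjusted p 0.0471 and 0.0435). From late 1C to early 2C 0 of 8 members were called in any arm (limma, 0 also at an unadjusted p under 0.05 and 0 with voom weights). The backgrounds were 2.93%, 1.29% and 0.868%, and 10.9%, 7.69% and 8.14% at an unadjusted p under 0.05.

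The difference between Duxbl and mCherry embryos itself changed from early to late 2C for the same 4 members, tested as an interaction over all 9 groups. The change was -4.78 for L3mbtl2 (SE 0.50, adjusted p = 5.32e-11, limma), -1.32 for Mga (SE 0.31, adjusted p = 0.000389), 2.42 for Max (SE 0.24, adjusted p = 1.53e-11) and 1.33 for Pcgf6 (SE 0.21, adjusted p = 6.43e-07). The background was 44.9% of 28808 genes. From late 1C to early 2C a change of this difference was called for 0 members (background 0.00347%), and 0 had an unadjusted p under 0.05 (1.75% of genes). These tests use the same libraries as the comparisons above and are not a further replicate of them.

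**Figure D3:**
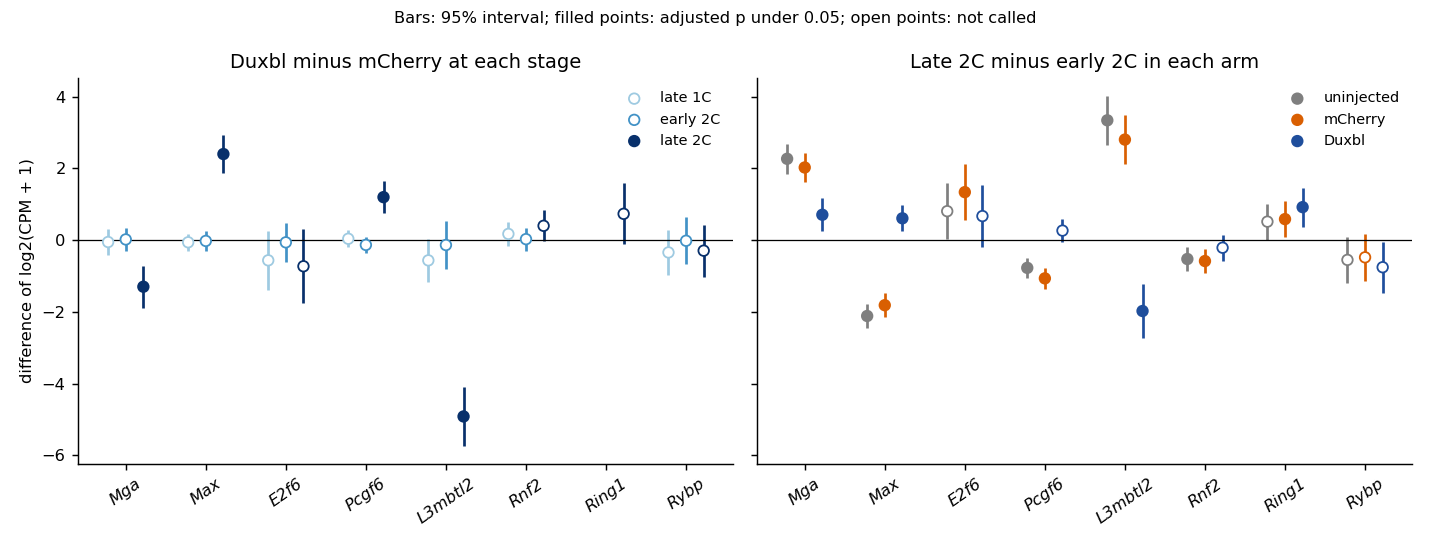
Difference of log2(CPM + 1) with its 95% interval for each member, for Duxbl minus mCherry at each stage and for late minus early 2C in each arm, with filled points for calls at an adjusted p under 0.05. At late 2C the Duxbl difference lies at -4.92 for L3mbtl2 and 2.40 for Max, whose changes in the uninjected arm were 3.34 and -2.12.

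The uninjected change from early to late 2C and the Duxbl difference at late 2C compare groups that share no library. Their calls do share libraries, because both fits take the spread from further groups and the scaling from all 50 libraries. The 4 members called in both had opposite signs in both, as seen from the values above: L3mbtl2 3.34 and -4.92, Mga 2.27 and -1.30, Max -2.12 and 2.40, and Pcgf6 -0.77 and 1.198. This was not particular to the complex. Of the 9779 genes of the whole table called in both, 9230 (94.4%) had opposite signs, which is 40.0% of the 23052 genes tested in both.

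**Figure D4:**
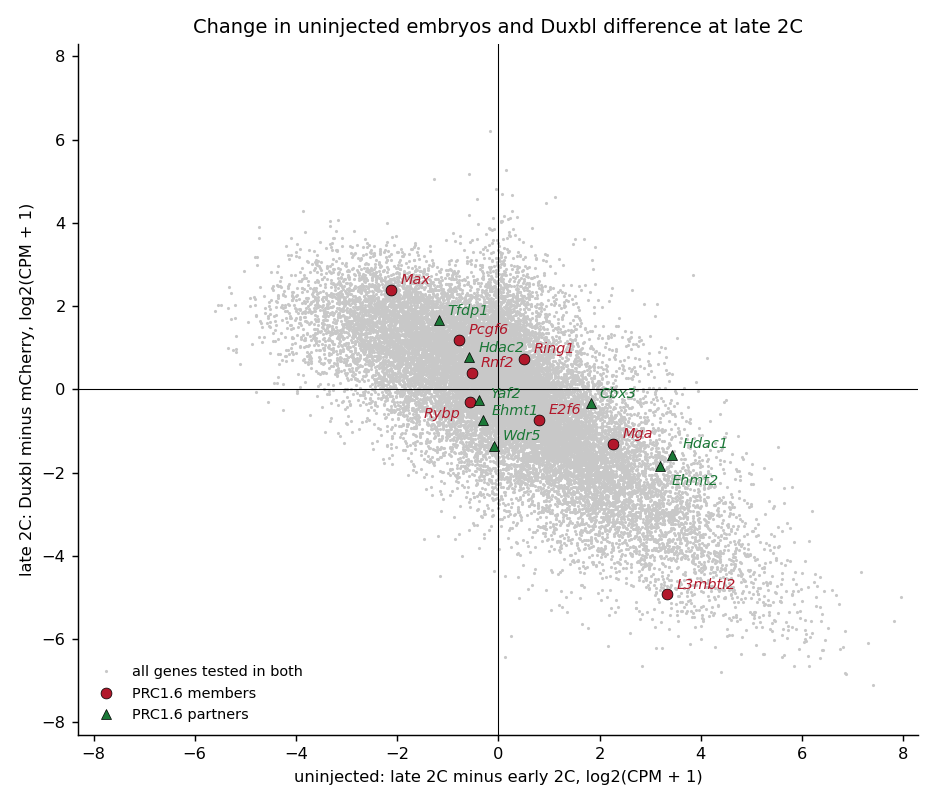
Each tested gene by its change of log2(CPM + 1) between early and late 2C without injection (horizontal) and its Duxbl minus mCherry difference at late 2C (vertical), with members (red) and partners (green) named. L3mbtl2 and Mga lie at the lower right, Max and Pcgf6 at the upper left, along the same diagonal as most of the 9779 genes called in both.

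Proteins that join the complex were read from a list of 8 partners. At late 2C 1 was higher and 3 were lower in Duxbl than in mCherry embryos, close to the background of 26.8% and 29.1% of all genes. Tfdp1, the DP protein that pairs with E2F factors, had 208, 252, 223, 257 and 288 CPM in the Duxbl libraries, all above the mCherry mean of 77.6 (log2 difference 1.66, SE 0.23, adjusted p = 2.11e-06, limma, no overlap). Hdac1, a histone deacetylase, averaged 44.9 against 133 CPM (-1.58, SE 0.27, adjusted p = 3.06e-05), and Wdr5, a histone-binding adaptor, 75.1 against 192 (-1.35, SE 0.26, adjusted p = 0.000113), both without overlap. Ehmt2, the H3 methyltransferase G9a, averaged 3.65 against 13.4 CPM (-1.85, SE 0.46, adjusted p = 0.00150), with overlap. Cbx3 (-0.34, adjusted p = 0.437), Yaf2 (-0.25, 0.699), Hdac2 (0.77, 0.0865) and Ehmt1, the G9a-like partner (-0.74, 0.0510), did not pass.

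In the uninjected arm from early to late 2C, Hdac1 (log2 difference 3.43), Ehmt2 (3.20) and Cbx3, a heterochromatin protein (1.82), rose and Tfdp1 fell (-1.18). Wdr5 stood at 194 and 188 CPM and did not pass (-0.09, adjusted p = 0.689, limma), nor did Yaf2 (-0.38), Hdac2 (-0.57) or Ehmt1 (-0.30). In the Duxbl arm over the same interval Wdr5 fell from 198 to 75.1 CPM (-1.43, adjusted p = 1.35e-08), and the interaction for Wdr5 was -1.33 (SE 0.25, adjusted p = 2.02e-05). Hdac1 rose in the Duxbl arm too, to 44.9 CPM from 10.7 (2.01, adjusted p = 5.30e-06), by less than in mCherry embryos (interaction -1.40, SE 0.47, adjusted p = 0.0127). Of the 8 partners, the interaction was called higher for 1 (Tfdp1, 1.64) and lower for 4, Ehmt2 (-2.28) and Ehmt1 (-0.78) among them. The background was 44.9% of all genes tested. Ehmt2 did not pass in the Duxbl arm (0.58, adjusted p = 0.256, limma). Tfdp1 (0.91) and Cbx3 (1.21) rose in the Duxbl arm as well, while Ehmt1 (-0.89, adjusted p = 0.00174) and Yaf2 (-0.91, adjusted p = 0.0439) fell. Yaf2 fell in the mCherry arm too (-0.92, adjusted p = 0.0170, limma), and its interaction did not pass (0.006, adjusted p = 0.994).

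Lists of related chromatin and germline genes were counted in the same fits. Among 20 other PRC1 subunits, 7 were higher and 4 lower in Duxbl embryos at late 2C (median 0.24 against -0.05 for all genes). Pcgf5, which defines another variant PRC1, was at 21.6 against 184 CPM (-3.11, SE 0.35, adjusted p = 1.77e-07, limma), and Cbx7, a reader of the PRC2 mark, at 3.87 against 30.7 (-2.75). Bmi1, a PCGF protein of canonical PRC1, was higher at 2866 against 1027 CPM (1.48, adjusted p = 8.08e-07). In the uninjected arm 6 rose and 8 fell, with Pcgf5 going from 7.78 to 173 CPM (4.25) and Auts2, a subunit that can turn PRC1 into an activator, from 157 to 60.8 (-1.38).

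Of 11 PRC2 subunits, which place the methyl mark on H3, 5 were higher and 2 lower after Duxbl (median 0.62), and 1 rose and 8 fell in the uninjected arm (median -1.31 against 0.02 for all genes). Mtf2, which brings PRC2 to CpG islands, was at 73.7 against 393 CPM after Duxbl (-2.37, adjusted p = 4.40e-06, limma) and rose from 49.8 to 414 in uninjected embryos (2.89). Aebp2, an accessory subunit, was higher after Duxbl (1.53) and the histone-binding Rbbp4 lower (-0.94). Rbbp7 (-2.54) and Eed, the subunit that binds the mark (-1.93), fell in uninjected embryos.

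Of 6 enzymes and cofactors that remove ubiquitin from H2A, 1 was higher and 2 were lower after Duxbl, and 3 rose and 3 fell in the uninjected arm. The deubiquitinase Usp21 was higher (1.96) and Mysm1 lower (-2.13, adjusted p = 2.70e-07, limma) after Duxbl, where the uninjected changes over the 2C stage were -1.54 and 1.14. Asxl1, a cofactor of the deubiquitinase BAP1, was lower in both, at 53.5 against 113 CPM after Duxbl (-1.07) and falling from 233 to 122 CPM in uninjected embryos (-0.94).

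Among 11 genes of the MYC and MAX network, 2 were higher and 2 lower after Duxbl, and 3 rose and 3 fell in the uninjected arm. Mxd1, a repressive MAX partner, was higher (1.09, adjusted p = 0.00511, limma), and its uninjected change was -1.92. Its relative Mxd3 (-2.41) and the MYC family gene Mycn (-1.63, adjusted p = 0.0178) were lower, and their uninjected changes were 2.85 and 2.54. Of 9 E2F and DP genes, Tfdp1 among them, 5 were higher and 1 lower after Duxbl (median 0.93), and 1 rose and 4 fell in the uninjected arm. E2f5, which acts mainly with pocket proteins in repression, was at 1507 against 285 CPM (2.41, adjusted p = 2.35e-07, limma) and its relative E2f4 at 404 against 85.6 (2.21). The repressor E2f7 was lower after Duxbl (-1.78) and rose in uninjected embryos (2.99), while E2f5 (-1.46) and E2f2 (-1.43) fell there.

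Of 19 germline and meiosis genes, the class that this complex is known to silence in embryonic stem cells, 13 rose and 3 fell in the uninjected arm (median 1.45 against 0.02 for all genes, of which 30.3% rose). Tex101, a germ cell surface protein, went from 0.306 to 56.8 CPM (5.25), Hormad1, a meiotic chromosome axis protein, from 3.37 to 70.3 (3.87) and Dazl, a germ cell RNA-binding protein, from 1093 to 115 (-3.37). After Duxbl 4 were higher and 7 lower (median -0.20). Dazl was higher at 415 against 132 CPM (1.75, adjusted p = 0.000148, limma). Sycp1, of the synaptonemal complex, was lower at 46.4 against 148 (-1.78, adjusted p = 9.94e-05), as was the piRNA factor Tdrkh at 53.4 against 146 (-1.46). None of these lists was tested as a set, and their counts stand beside the 26.8% of all genes higher and 29.1% lower after Duxbl, and the 30.3% that rose and 26.6% that fell in the uninjected arm.

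**Figure D5:**
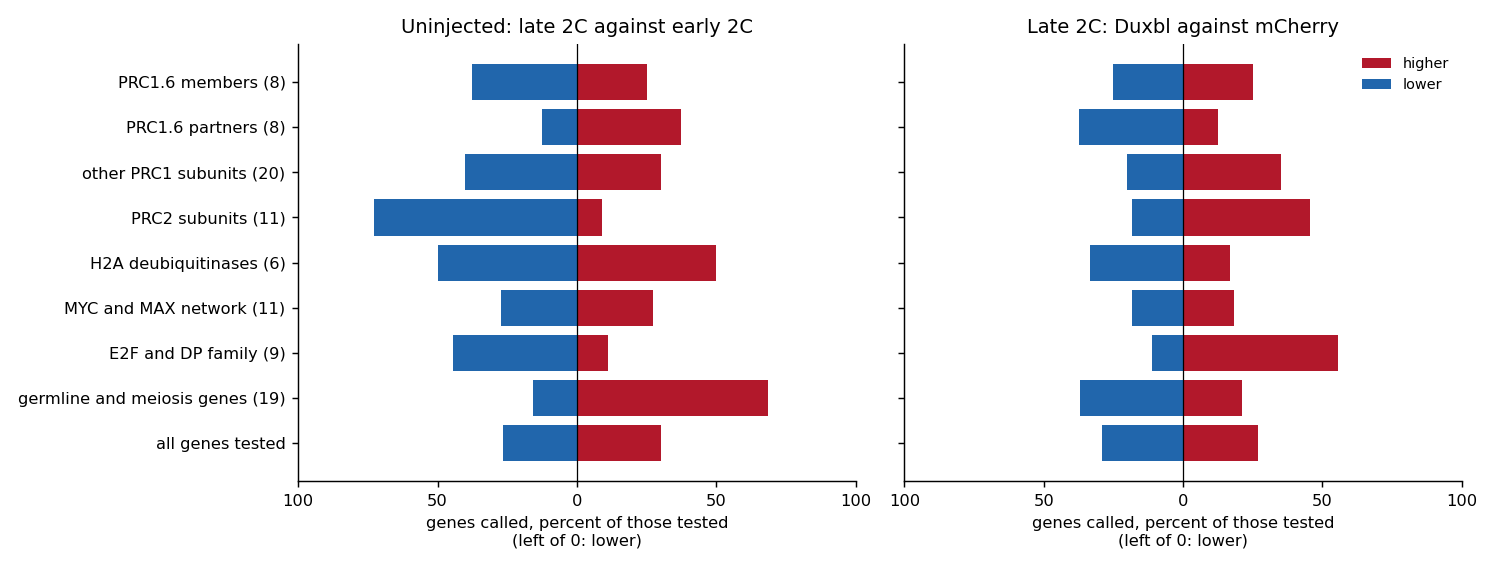
Percent of the tested genes of each list called higher (right, red) or lower (left, blue), in the uninjected arm between early and late 2C (left panel) and for Duxbl against mCherry at late 2C (right panel), with all genes tested in the lowest row. Of the PRC2 subunits, for example, 5 of 11 were higher after Duxbl and 8 of 11 fell in the uninjected arm.

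Shares of summed CPM, not corrected for length, show how RNA was divided between paralogs without depending on the scaling of libraries. The other Pcgf genes mark other versions of PRC1, so the Pcgf6 share is not a share within PRC1.6. Pcgf6 made up 20.3% (18.9 to 21.9%) of the summed CPM of the 6 Pcgf genes in uninjected early 2C embryos and 17.3 ± 1.40% at late 2C, without overlap (n = 6 each, two-sided exact permutation p = 0.00216, the smallest this design allows, adjusted over 36 share comparisons 0.0260). In mCherry embryos it went from 22.6 ± 1.72% to a mean of 16.8% with a range of 14.6 to 18.0% (exact permutation p = 0.00216, adjusted 0.0260). In Duxbl embryos at late 2C it was 18.7 ± 4.07% (n = 5), which did not differ from mCherry beyond the spread (exact permutation p = 0.299, adjusted 0.568). The Duxbl libraries had 20.06, 20.46, 11.64, 22.03 and 19.35%. Only library 4, at 11.64%, was not above the highest mCherry library (17.98%) and the highest uninjected library (18.52%) at late 2C. So the higher Pcgf6 level after Duxbl came without a called change in its share among the 6 paralogs. With library 4 so far from the rest, the test does not show that the share was unchanged.

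Rnf2 supplied nearly all of the Rnf2 plus Ring1 RNA: 99.998 ± 0.00388% in uninjected early 2C and 99.8 ± 0.221% in late 2C embryos (exact permutation p = 0.00216, adjusted 0.0260). After Duxbl it was 99.4 ± 0.465% at late 2C, against 99.7 ± 0.273% in mCherry embryos (exact permutation p = 0.227, adjusted 0.511). Rybp made up 62.6 ± 16.5% of Rybp plus Yaf2, the closely related subunit, in Duxbl and 64.2 ± 8.43% in mCherry embryos at late 2C (exact permutation p = 0.851, adjusted 0.99). Of the 36 share comparisons 3 were called, and 0 were called without uninjected early 2C library 7.

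The members did not follow one pattern over the 9 group means of log2 level. As a description, Pearson's r was 0.97 between Pcgf6 and Max, 0.71 between L3mbtl2 and Mga, -0.95 between L3mbtl2 and Pcgf6 and -0.89 between Mga and Max. These points share libraries and scaling. Among about 12068 genes, those most like each member were Mrps10 (0.998) and Pcmt1 (0.997) for L3mbtl2, Gm6578 and Setd1b (0.997 each) for Pcgf6, Clhc1 and Rnf7 (0.998 each) for Mga, and Pid1 (0.998) and Smkr-ps (0.996) for Max. They were Zfp59 (0.984) and Prdx6 (0.981) for E2f6, Lpcat4 (0.994) and Ap2m1-ps (0.985) for Rybp, EPPK1 and Gm47251 (0.988 each) for Ring1, and Abi1 and Snx4 (0.989 each) for Rnf2. Rybp, Ring1 and Rnf2 were not among the genes searched, because of the limits on level and range, so they could not appear. L3mbtl2, Pcgf6, Mga, Max and E2f6 were searched, and none was among the 2 genes most like another member.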

How the data were processed

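Per the labels' protocols, SMART-Seq v4 chemistry gave the cDNA and Nextera XT the libraries, which do not keep strand. The submitters' processing notes list the mm39 build with DESeq2 1.36.0, DESeq, featureCounts 2.0.4, STAR 2.7.10a, Trimmomatic 0.39 and Picard 3.0.0, but not what each did. The unit taken for the deposited table is a score: its values are whole numbers, but 19 of the 50 libraries lack at least 1 whole number from 1 to 20, so they look scaled and rounded. The depth is unknown, and no counting interval or limit was computed. The lowest maximum of any gene was 6. There were 0 identical pairs of libraries.

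The planned count test was therefore replaced by its planned fallback. Values were divided by library totals times trimmed-mean-of-M factors over all 50 libraries (30% of ratios, 5% of abundances trimmed), giving CPM, and tested as log2(CPM + 1), a scale that compresses fold changes at low levels. A gene was tested if the number of libraries with a deposited value of 10 or more reached the size of the smallest group. Tests were made with limma 3.58.1 in R 4.3.3 (trended, robust prior, two-sided), in a fit of the 3 groups of a stage, or of all 9 groups for stage changes and interactions. Benjamini-Hochberg adjustment was over all genes tested, with calls at an adjusted p under 0.05. Python 3.11.15, numpy 2.4.6, pandas 2.3.3 and matplotlib 3.10.9 gave shares and figures. Exon lengths came from GENCODE by Ensembl ID, and promoters from RefSeq.

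Members and lists were chosen with earlier results of these data known. All members and partners are named. From the other lists, up to 3 called genes with the smallest adjusted p are named for Duxbl against mCherry at late 2C and for the uninjected change from early to late 2C, and for each member the 2 genes with the most similar group means (among genes reaching 10 CPM with a log2 range of at least 1). One gene under this rule is not reported here. Marker lists covered oocyte, 2-cell stage, cumulus and granulosa, oviduct, sperm and blood. Library numbers in the labels were checked as pairs by correlating deviations from group means, and taken as pairs where every r was over 0.1. This held only for Duxbl with mCherry at late 1C (4 pairs, r 0.198 to 0.340), where the blocked count of members called was also 0. Elsewhere some likeness by number remained: in both stage comparisons of the mCherry arm, 8 of 12 libraries correlated best with their own number. Alternatives were other scalings, constants, filters, voom weights, other sets of groups, the uninjected control, a replicate block and leaving out libraries.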

Additional observations from a re-analysis of the deposited data

Results flagged for a closer look

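In 8 of 72 combinations of a member and a group, 1 library lay far from the rest by Dixon's gap test, which chance does in about 1 of 20 groups. L3mbtl2 in mCherry late 2C library 6 was at 119.12 CPM, with the others at 68.4 to 79.4. Max was at 274.963 CPM in mCherry late 1C library 5 and at 316.125 in uninjected early 2C library 4, and E2f6 at 36.6703 CPM in uninjected late 2C library 5. The other 4 concern Ring1 near the floor: 0.47275 CPM in mCherry late 1C library 3, 0.0444979 in uninjected early 2C library 5, 0.49249 in mCherry early 2C library 3 and 1.64938 in uninjected late 2C library 3. In uninjected and in mCherry early 2C embryos all other libraries had Ring1 at 0, so a single value above 0 is always flagged. The rate of 1 in 20 does not apply there.

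The difference between Duxbl and mCherry embryos changed from early to late 2C for 4 members, by interaction in limma: -4.78111 for L3mbtl2, -1.31864 for Mga, 2.42351 for Max and 1.33236 for Pcgf6. This happened for 44.9% of all genes tested, so the 4 of 8 are close to the background.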

How the results depend on the processing

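Over the alternatives, 2439 values of the members were recomputed for 108 results: 2392 kept their side of the threshold, 20 lost a call, 27 gained one, and 0 called values changed sign, while some values that were not called did. The count of members called for Duxbl against mCherry at late 2C was 4, and 4 to 6 under other settings (4 to 5 with 1 library left out). It was 5 (5 to 6, and 5 to 7) for early to late 2C in uninjected, 7 (6 to 8, and 6 to 7) in mCherry and 4 (3 to 5, and 4 to 5) in Duxbl embryos, and 4 under every setting run for the interaction. The counts of 0 at the earlier stages stayed 0 under every alternative run. L3mbtl2, Mga, Max and Pcgf6 kept their late 2C calls under each alternative.

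With library totals the median of all genes for Duxbl against mCherry at late 2C was -0.26 in place of -0.05, and L3mbtl2 was -5.25, Mga -1.62, Max 2.08 and Pcgf6 0.88. Library totals and median ratios added E2f6 (1.18 and 1.11), Ring1 (0.60 each) in the uninjected arm and Pcgf6 (0.35 and 0.53) in the Duxbl arm between early and late 2C. Leaving out every library numbered 4 or 5, and scaling within each stage, were chosen after seeing the data.

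Apart from Duxbl against mCherry at late 1C, no comparison had every pair above 0.1 (r from -0.119 to 0.395, with 5 of 6 pairs above 0.1 in 3 comparisons), so the numbers were not taken as pairs. Between Duxbl and mCherry at late 2C the 5 pairs had r of -0.01 to 0.09, and 7 of 10 libraries correlated best with their own number. With the replicate block the members called there stayed 4, and Rybp was called between early and late 2C in all 3 arms (-0.55, adjusted p = 0.000984; -0.48, 0.00381; -0.89, 1.18e-05, limma). Paralog shares called were 3, but 0 with the replicate block (sign flips over 6 pairs cannot go below p = 0.0312, exact test), 3 with the uninjected control and 0 to 4 with 1 library left out (0 without uninjected early 2C library 7). Calls over the related lists were 45 (41 to 55). Over all genes at early 2C, the count lower after Duxbl was 83, but 3 with voom weights and 150 with the uninjected control. The causes of these changes were not tested.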
